A study of Homo sapiens and Mus musculus with 33 samples.

Results

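Polycomb repressor genes were followed through every assay of the series: 9 genes, taken by symbol as EZH1, EZH2, EED, SUZ12, JARID2, BMI1, RING1, RNF2 and CBX8 from the 35805 genes of the HCT116 RNA-seq table, and by the same names in mouse spelling from the 25965 genes of the colon table. All 9 were found once in each. Peaks were added wherever they lay in or within 2 kb of the gene, which gave 20 of the 40266 peaks in HCT116 cells, 11 of the 30338 H3K18cr peaks in colon and 13 of the 27035 H3K4me3 peaks in colon. HCT116 cells, a line from a human colon carcinoma mapped to GRCh38, were treated for 18 h with 5 µM MS275 (entinostat, an inhibitor of class I histone deacetylases) or with DMSO, the vehicle. Each treatment had 4 RNA-seq libraries, 3 ChIP-seq libraries of H3K18cr (histone H3 crotonylated at lysine 18), 3 of H3K18ac (acetylated at the same lysine) and 1 input library. The colon samples were epithelial cells of male C57BL/6 mice, whose age is not given in the sources used here, mapped to GRCm38: 3 RNA-seq libraries from 3 mice, 2 H3K18cr libraries with 2 inputs, and 3 libraries of H3K4me3 (trimethylation of lysine 4, a promoter mark) with 1 input. By the study's methods colons were pooled for ChIP-seq, and HCT116 is a single line. The comparison of treatments asks how inhibition of class I deacetylases changes both acyl marks and transcription at these genes, and the colon data give the same genes in normal epithelium.

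Polycomb proteins keep developmental genes silent. Polycomb repressive complex PRC2 methylates lysine 27 of histone H3: EZH2 or its paralog EZH1 is the catalytic subunit, EED reads the methylated product and stimulates the enzyme, SUZ12 holds the complex together, and JARID2 is an accessory subunit that helps recruit it to DNA. In PRC1, RING1 and RNF2 (RING1B) are alternative ubiquitin ligases for histone H2A, BMI1 (PCGF4) is the partner that activates them, and CBX8 is a chromodomain subunit that binds the methylated lysine. EZH2 is a gene of dividing cells in many tissues, including intestinal crypts, and EZH1 is known mainly from cells that no longer divide. Deacetylases remove both acetyl and crotonyl groups from histones, so an inhibitor can act on both marks.

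The HCT116 RNA-seq libraries held 35608533 to 53415604 counts and the colon ones 8166406 to 10707901. ChIP-seq libraries held 2236551 to 5730094 reads in peaks in HCT116 cells and 1105419 to 3451663 in colon. Both RNA-seq libraries of replicate 3 stood apart from the others, and the RNA results that turn on them are also given without that pair. In HCT116 libraries the epithelial markers summed to 3459 to 6039 CPM (counts scaled to the library size, TMM-normalized in the cell line and the total count in colon), mostly KRT8, KRT18, KRT19 and EPCAM, while the differentiation markers KRT20 (means 0.875 and 2.12 CPM) and VIL1 (0.361 and 0.319 CPM, at 0 in some libraries) were near 0. Colon libraries summed to 8145 to 9663 CPM for the same list, with goblet markers at 10514 to 17596 CPM and absorptive markers at 1576 to 2182 CPM. Immune markers summed to 28.5 to 49.0 CPM and stromal and endothelial markers to 27.4 to 35.4 CPM in colon. In HCT116 cells immune markers were at 5.03 to 11.5 CPM (MS4A1 at 0 in both treatments), goblet markers at 0.483 to 7.65 CPM and absorptive markers at 0 to 0.260 CPM. Stromal and endothelial markers were higher with MS275, at 17.4 to 21.1 against 9.98 to 11.3 CPM, mostly COL1A1 and ACTA2, and their part in the results was not tested. The enteric glia and neuron list, at 129 to 186 CPM in HCT116 cells and 0.928 to 2.45 CPM in colon, was almost all TUBB3 in the cell line.

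At most start sites of the 9 genes relative H3K18cr reads were called lower in MS275-treated cells, and at 5 of 10 those of H3K18ac were. A promoter peak was one within 1 kb of an annotated start site of the gene, and 10 of the 20 peaks met this, 1 for each gene and 2 for BMI1. All 10 had a negative log2 change for H3K18cr and for H3K18ac, as did 92.5% and 91.2% of all peaks at start sites. For H3K18cr, 7 of 10 were called lower at an adjusted p under 0.05 (limma), where 23.0% of all peaks and 55.1% of peaks at any start site were called lower. For H3K18ac it was 5 of 10, against 16.3% of all peaks and 43.1% of peaks at start sites. Every MS275 library lay below every DMSO library at 9 of 10 promoters for H3K18cr and at 5 of 10 for H3K18ac, where 61.9% and 50% of peaks at start sites did so. The median log2 change of the 10 was -0.67 for H3K18cr and -0.73 for H3K18ac, beside -0.54 and -0.60 for the 12821 and 12820 peaks at start sites. Whether the Polycomb promoters differ from other start sites was not tested. The values are relative read counts, scaled by the authors to the largest library, and a fall here and below is one in relative reads. The study reports more global histone crotonylation with MS275 by western blot, and more H3K18cr at tested promoters and repeats by ChIP-qPCR. The paper proposes that gains outside start sites could lower the share of reads at start sites. For the 9 genes this was not tested. Scaling by TMM over peaks changed the median over all peaks, from -0.20 to 0.04 (H3K18cr) and from -0.19 to 0.06 (H3K18ac). Under it the 10 promoters had medians of -0.43 and -0.48, all 10 still negative, as were 80.2% and 78.6% of peaks at start sites. Of the 10, 6 and 5 were called lower, where 29.5% and 43.7% of peaks at start sites were. As a ratio of the mean to the single input library of the treatment, 9 of 10 promoters were lower with MS275 for H3K18cr and 8 of 10 for H3K18ac, beside 83.8% and 84.2% of start sites. Over all peaks the calls split into 93 higher and 9210 lower for H3K18cr as scaled by the authors, and 712 and 4448 under TMM; for H3K18ac they split into 106 and 6534, and 1803 and 6627.

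**Figure D1:**
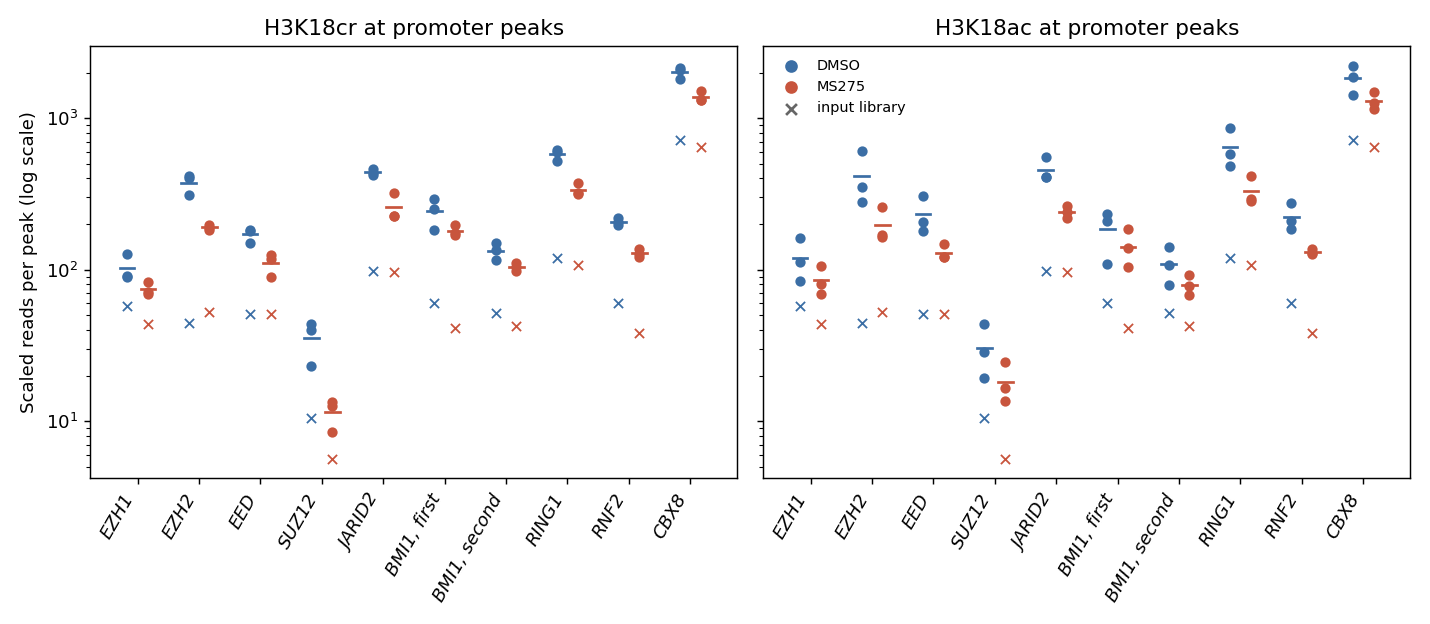
Scaled reads in the 10 promoter peaks of the Polycomb genes on a log axis, for H3K18cr (left) and H3K18ac (right). Points are the 3 libraries of each treatment, short lines their means and crosses the single input library of each treatment. The MS275 means lie below the DMSO means at all 10 peaks for both marks. The groups separate fully in both panels at EZH2, EED, JARID2, RING1 and RNF2, where 61.9% (H3K18cr) and 50% (H3K18ac) of all start-site peaks separate.

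EZH2, the catalytic subunit of PRC2, had one of the most densely marked promoters. Its peak (chromosome 7, 148882801 to 148885800, 3000 bp across the start site) held 413, 400 and 311 scaled reads of H3K18cr in the DMSO libraries and 182, 198 and 189 in the MS275 libraries. The groups did not overlap. H3K18cr fell by 0.97 on the log2 scale (SE 0.16, limma adjusted p = 7.7e-05), to a fold of 0.511. H3K18ac was 282, 351 and 610 with DMSO and 261, 165 and 170 with MS275, again without overlap, and fell by 1.02 (SE 0.25, limma adjusted p = 0.00153). Read density in DMSO was at percentile 99.4 of start-site peaks for H3K18cr and at percentile 98.3 for H3K18ac. Against the input libraries the mean of H3K18cr was 8.45 times the input with DMSO and 3.63 times with MS275. The other promoters had smaller differences in this ratio, and the first BMI1 peak had a higher one with MS275 for both marks (4.04 to 4.4 and 3.09 to 3.47), as did SUZ12 for H3K18ac (2.93 to 3.23). EZH1, the paralog, was marked far less: its 2100 bp peak held 126, 91.4 and 89.7 scaled reads of H3K18cr with DMSO and 68.6, 70.8 and 82.8 with MS275. That change, -0.45 (SE 0.19), was not called (limma adjusted p = 0.0899), although the groups did not overlap, and its density was at percentile 36.8. H3K18ac at EZH1 was 83.8, 113 and 161 against 105, 80.8 and 69.2, with overlap, and was not called (-0.46, SE 0.25, limma adjusted p = 0.234).

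The promoters of EZH2, EZH1 and SUZ12 are shown because EZH2 was the most densely marked of the 9 genes, EZH1 is its paralog, and SUZ12 had the narrowest promoter peak. The sequences are the 250 bases before the RefSeq start (GRCh38.p14), 5′ to 3′ on the strand of the gene, in lower case. Capitals mark the letters of an E2F motif (TTTCGCGC, TTTGGCGC, TTTCCCGC or TTTGCCGC) or of a CCAAT box (CCAAT), read on both strands. No hit of the one overlapped a hit of the other.
EZH1, chr17:42745041-42745290, minus strand: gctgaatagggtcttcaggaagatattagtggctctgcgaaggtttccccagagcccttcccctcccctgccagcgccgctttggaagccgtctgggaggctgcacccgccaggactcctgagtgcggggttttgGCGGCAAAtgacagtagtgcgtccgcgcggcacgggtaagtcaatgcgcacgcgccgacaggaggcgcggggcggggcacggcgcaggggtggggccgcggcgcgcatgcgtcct
EZH2, chr7:148884292-148884541, minus strand: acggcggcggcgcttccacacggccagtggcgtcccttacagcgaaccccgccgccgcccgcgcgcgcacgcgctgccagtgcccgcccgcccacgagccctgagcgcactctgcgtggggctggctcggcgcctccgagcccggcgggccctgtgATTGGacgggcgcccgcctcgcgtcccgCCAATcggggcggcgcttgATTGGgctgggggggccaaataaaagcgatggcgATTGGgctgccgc
SUZ12, chr17:31936757-31937006, plus strand: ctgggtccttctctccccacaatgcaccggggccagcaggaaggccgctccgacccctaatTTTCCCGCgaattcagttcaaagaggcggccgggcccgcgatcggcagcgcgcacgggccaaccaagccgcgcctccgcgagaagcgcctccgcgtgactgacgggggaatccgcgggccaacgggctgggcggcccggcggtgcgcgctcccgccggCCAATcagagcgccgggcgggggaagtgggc
The EZH2 stretch held 4 CCAAT boxes and 38 CpG, and lay wholly in its peak. EZH1 held 1 E2F motif and 26 CpG, also inside its peak. SUZ12 held 1 of each motif and 34 CpG and had 0 bases in its peak. Of the 9 genes, 8 matched the RefSeq table, with 11 start sites between them, and CBX8 had no entry. Their median CpG count was 34 and their GC content 51.2% to 91.6%, against medians of 11 CpG and 58% GC over all 35116 promoters of the table. EED, at 11 CpG, was the lowest of them and the second BMI1 start, at 54, the highest. An E2F motif stood in 2 of the 11 promoters (EZH1 and SUZ12) and in 2.79% of all promoters, and a CCAAT box in 4 of the 11 (1 each of EZH2, EED, SUZ12 and JARID2) and in 32.0% of all promoters. An ETS motif (CCGGAAG, both strands) stood in 0 of them and in 8.52% of all promoters.

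SUZ12 had the narrowest promoter peak of the members. In HCT116 cells it was 600 bp wide (chromosome 17, 31937101 to 31937700), where the median start-site peak was 2550 bp and 1.94% were this narrow. It held 40, 43.7 and 23.2 scaled reads of H3K18cr with DMSO and 13.5, 8.5 and 12.6 with MS275. This was the largest fall among the 10 promoters (-1.60, SE 0.33, limma adjusted p = 0.000534), from 15 to 40 reads a library down to 6 to 12. H3K18ac was 19.2, 28.7 and 43.8 against 24.7, 16.5 and 13.6, with overlap, and was not called (-0.71, SE 0.31, limma adjusted p = 0.104). SUZ12 has a partial copy on the same chromosome, SUZ12P1 (30731886 to 30776402). Of the 50-base words of the peak 35.0% also occurred in or within 5000 bp of that copy, as did 40.1% of those in the 500 bases before it. Over 1500 bases the shares were 15.5% before the peak and 38.0% after it. Reads of the peak and its flanks are thus uncertain where only unique ones were kept. In mouse the Suz12 peak was 2400 bp wide for H3K18cr.

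EED, the subunit that reads methylated lysine 27, held 180, 183 and 150 scaled reads of H3K18cr with DMSO and 117, 89.2 and 125 with MS275, without overlap. It fell by 0.64 (SE 0.18, limma adjusted p = 0.00761). TMM scaling ended this call (-0.40, limma adjusted p = 0.0808), as did edgeR (adjusted p = 0.0832) and DESeq2 (adjusted p = 0.168). Leaving out DMSO replicate 2 (limma adjusted p = 0.0526) or MS275 replicate 2 (limma adjusted p = 0.0997) ended it too. H3K18ac was 181, 207 and 306 against 147, 122 and 121 and fell by 0.80 (SE 0.25, limma adjusted p = 0.0144). JARID2, the recruiting subunit, had 11 peaks, the most of any member. It is also the longest of the genes, at 275745 bp, with EZH2 next at 76939 bp, and the count was not set per length. Its promoter peak held 422, 433 and 461 scaled reads of H3K18cr with DMSO and 227, 225 and 323 with MS275, and fell by 0.78 (SE 0.16, limma adjusted p = 0.000584). H3K18ac there was 408, 407 and 552 against 262, 219 and 239 and fell by 0.91 (SE 0.25, limma adjusted p = 0.00426). Both marks separated the treatments fully at this promoter.

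The other 10 peaks of JARID2 lay inside the gene, 37355 to 202805 bp beyond its start, and their changes were smaller in the median. Their median log2 change was 0.05 for H3K18cr and 0.00 for H3K18ac, beside -0.08 and -0.06 for all peaks away from start sites. The change was negative at 4 of 10 for H3K18cr and at 5 of 10 for H3K18ac, beside 60.2% and 58.0% of peaks away from start sites. They held 6.82 to 77.2 scaled reads of H3K18cr in a library. Of all peaks away from start sites 7.9% were called lower for H3K18cr and 3.7% for H3K18ac. Among these 10 a single one was called, for H3K18cr alone. At 15439651 to 15440400 it held 28.0, 28.7 and 23.2 scaled reads with DMSO and 10.1, 18.4 and 12.6 with MS275 (-0.99, SE 0.33, limma adjusted p = 0.0238). TMM scaling ended this call (limma adjusted p = 0.125), as did edgeR (adjusted p = 0.112). Leaving out DMSO replicate 1 or 2 or MS275 replicate 1 or 3 ended it too (limma adjusted p 0.0566 to 0.126). H3K18ac at the same peak was 20.4, 18.1 and 15.5 against 24.7, 28.0 and 24.1, higher in all 3 MS275 libraries but not called (limma adjusted p = 0.308). The difference between marks was -1.51 (SE 0.44, unadjusted p = 0.00113) and did not pass adjustment over all peaks (limma adjusted p = 1.00).

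In PRC1, the promoters of the ligase genes RING1 and RNF2 had fewer scaled reads of both marks with MS275. RING1 lay in a 5850 bp peak that also covers the start of HSD17B8, its neighbour, so the reads cannot be assigned to one of these genes. It held 613, 601 and 523 scaled reads of H3K18cr with DMSO and 316, 321 and 372 with MS275 and fell by 0.78 (SE 0.15, limma adjusted p = 0.000314). H3K18ac there was 481, 581 and 865 against 417, 282 and 291 and fell by 0.94 (SE 0.25, limma adjusted p = 0.0029). RNF2 was at 198, 218 and 207 against 127, 122 and 136 for H3K18cr (-0.70, SE 0.17, limma adjusted p = 0.00197). For H3K18ac it was at 185, 211 and 277 against 136, 129 and 128 (-0.76, SE 0.25, limma adjusted p = 0.0227). Neither gene's groups overlapped for either mark, as at 61.9% (H3K18cr) and 50% (H3K18ac) of all start-site peaks, where every MS275 library was the lower. The ratio to input went from 4.83 to 3.13 at RING1 and from 3.47 to 3.36 at RNF2 for H3K18cr, and from 5.35 to 3.07 and from 3.74 to 3.43 for H3K18ac.

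BMI1, the partner of these ligases, was not called at either of its peaks. The first, 3150 bp across the start site, held 292, 253 and 183 scaled reads of H3K18cr with DMSO and 198, 176 and 168 with MS275, with overlap (-0.40, SE 0.17, limma adjusted p = 0.101). The second, which begins 2840 bp into the gene, was at 149, 135 and 116 against 110, 97.7 and 104 (-0.35, SE 0.18, limma adjusted p = 0.165). H3K18ac changed by -0.35 (SE 0.25) at the first and -0.43 (SE 0.25) at the second, both with overlap. CBX8 lay in a domain of 28050 bp that runs on past the gene on both sides. Of the 12833 start-site peaks 32 were at least this wide. It held 2077, 2135 and 1813 scaled reads of H3K18cr with DMSO and 1316, 1314 and 1502 with MS275 and fell by 0.54 (SE 0.14, limma adjusted p = 0.0054), a call that ended without DMSO replicate 2 (adjusted p = 0.0634), without MS275 replicate 1 (0.0588) and with DESeq2 (0.056). H3K18ac was 1426, 1867 and 2223 against 1492, 1262 and 1141, with overlap, and was not called (-0.49, SE 0.23, limma adjusted p = 0.141).

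The H3K18ac calls depended on single libraries and on the pairing. Of the 10 promoters, 9 were called lower without DMSO replicate 1, 3 without DMSO replicate 2 or DMSO replicate 3, and 0 without MS275 replicate 2 or MS275 replicate 3, against 5 with all libraries. With the replicate number as a block, the fit closest to the paired test that the study used for these marks over start sites, 0 of 10 were called, beside 5.4% of start sites. The 5 promoters called without the block then had limma adjusted p of 0.092 (EZH2), 0.18 (EED), 0.136 (JARID2), 0.122 (RING1) and 0.216 (RNF2). With the input subtracted 1 of 10 was called, beside 20.8% of start sites. In the fits with one library left out, start sites as a whole moved with them: 56.3% were called lower without DMSO replicate 1, 21% and 25.2% without DMSO replicate 2 or DMSO replicate 3, and 9.77% and 13% without MS275 replicate 2 or MS275 replicate 3. For H3K18cr the count lay between 5, without DMSO replicate 2, and 10, without DMSO replicate 3, where 40.2% and 69.1% of start sites were called lower. DESeq2 on the recovered reads called 3 of 10, and 22% of start sites. It did not call RNF2 (DESeq2 adjusted p = 0.0726) and gave no adjusted p for SUZ12, whose limma call also ended with the input subtracted (adjusted p = 0.0523). The difference between the marks passed at 0 of 40266 peaks (limma, 739 at an unadjusted p under 0.05), the 10 promoters included. Over 9 of the 10 promoters the difference of the log2 changes, H3K18cr minus H3K18ac, lay between -0.06 and 0.16 with an SE of 0.26 to 0.33, and at SUZ12 it was -0.89 (SE 0.47).

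Among the transcripts few calls were made. With MS275 none of the 9 was called in HCT116 RNA (edgeR's quasi-likelihood test), where 0.00668% of the 14961 genes tested were called, that is 1 gene, with 987 at an unadjusted p under 0.05. DESeq2 called 140 genes, 0.936% of those tested, and none of the 9. The replicate numbers were treated as pairs on the basis of the data, as the labels do not state a pairing. With the number as a block 1 of the 9, BMI1, was called higher, where 14.4% of all genes were called. The median log2 change of the 9 was 0.07 (0.05 with the block), beside 0.01 over all genes tested. The treatments overlapped in all 9, and did not overlap in 5.37% of the genes tested. Without pair 3 the block called 2 of the 9, BMI1 and JARID2, where 17.2% of genes were called.

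BMI1 was at 87.8, 72.3, 42.7 and 75.5 CPM in the 4 DMSO libraries and at 97.2, 98.1, 62.6 and 89.2 CPM in the same-numbered MS275 libraries, higher in 4 of 4 pairs. The change was 0.32 (SE 0.24, edgeR adjusted p = 0.903) and 0.34 with the block (SE 0.09, 95% interval 0.15 to 0.53, edgeR adjusted p = 0.0214). It passed without pair 1 (edgeR adjusted p = 0.0342) or pair 3 (0.0443) and not without pair 2 (0.113) or pair 4 (0.0638). The read-through gene COMMD3-BMI1 overlaps BMI1 on the same strand, so their reads cannot be fully told apart. Its counts, 1781, 1589, 426 and 2522 with DMSO and 2209, 2141, 916 and 2218 with MS275, gave 0.51 with the block (SE 0.15, edgeR adjusted p = 0.039).

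JARID2 was at 21, 20, 24.6 and 22.2 CPM with DMSO and at 30.7, 27.2, 18.7 and 40.8 CPM with MS275, higher in pairs 1, 2 and 4 and lower in pair 3. It was not called with the block (0.38, SE 0.17, edgeR adjusted p = 0.169), and without pair 3 it was (0.62, edgeR adjusted p = 0.0058). EED went the other way, at 35.1, 25.9, 21.5 and 24.6 CPM against 32.7, 22.7, 17.2 and 18.5 CPM, lower in 4 of 4 pairs, and was not called either (-0.26 with the block, SE 0.12, edgeR adjusted p = 0.165). EZH2 was at 70.5, 47.4, 53.5 and 44.2 CPM against 79.4, 50.5, 53.4 and 42.7 CPM. Its change with the block was 0.05 (SE 0.09, 95% interval -0.14 to 0.24), while H3K18cr at its promoter was at a fold of 0.511. EZH1 was at 7.63, 9.01, 8.37 and 10.3 CPM against 5.87, 8.30, 15.8 and 10.6 CPM, with its highest value in MS275 replicate 3. The remaining 4 genes were not called and had log2 differences of -0.13 to 0.12 with the block: SUZ12 (-0.07, SE 0.09), RING1 (-0.13, SE 0.09), RNF2 (0.12, SE 0.12) and CBX8 (0.02, SE 0.11). RNF2 was lower in pair 3 alone. Without that pair its change was 0.26 (SE 0.10), still not called (edgeR adjusted p = 0.0977). The direction of the changes of EZH1, EZH2, SUZ12, RING1 and CBX8 turned when single libraries were left out.

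**Figure D2:**
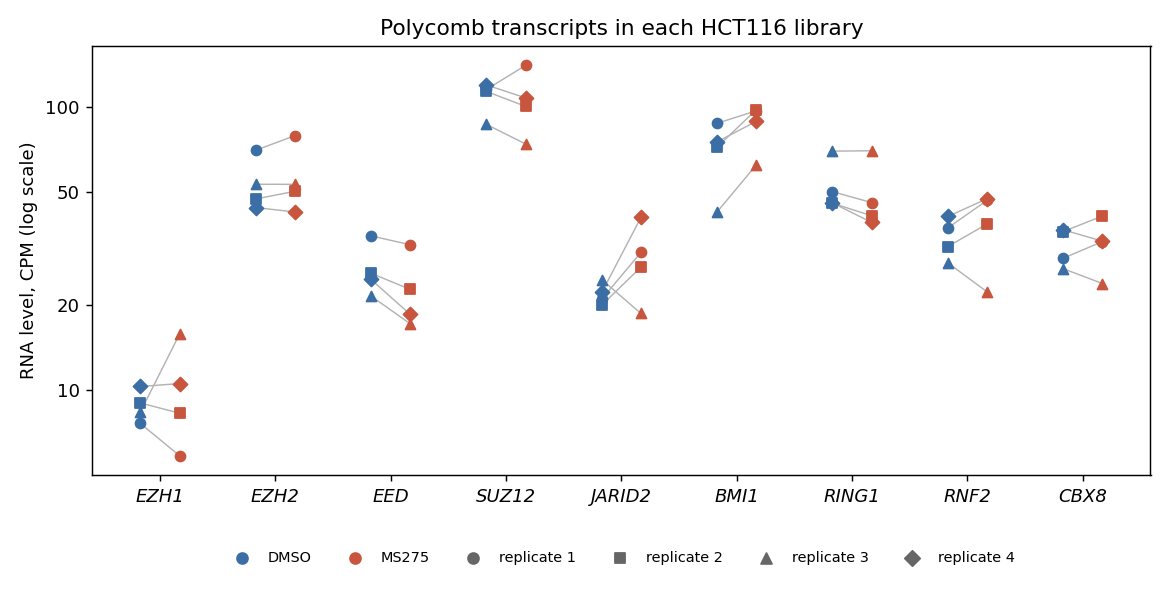
RNA level of each Polycomb gene in CPM on a log axis, with DMSO and MS275 libraries of the same number joined by a line. BMI1 is higher with MS275 in 4 of 4 pairs and EED, which was not called, lower in 4 of 4, while within each treatment RING1 is highest, and EED, SUZ12, BMI1, RNF2 and CBX8 are lowest, in the library of replicate 3.

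**Figure D3:**
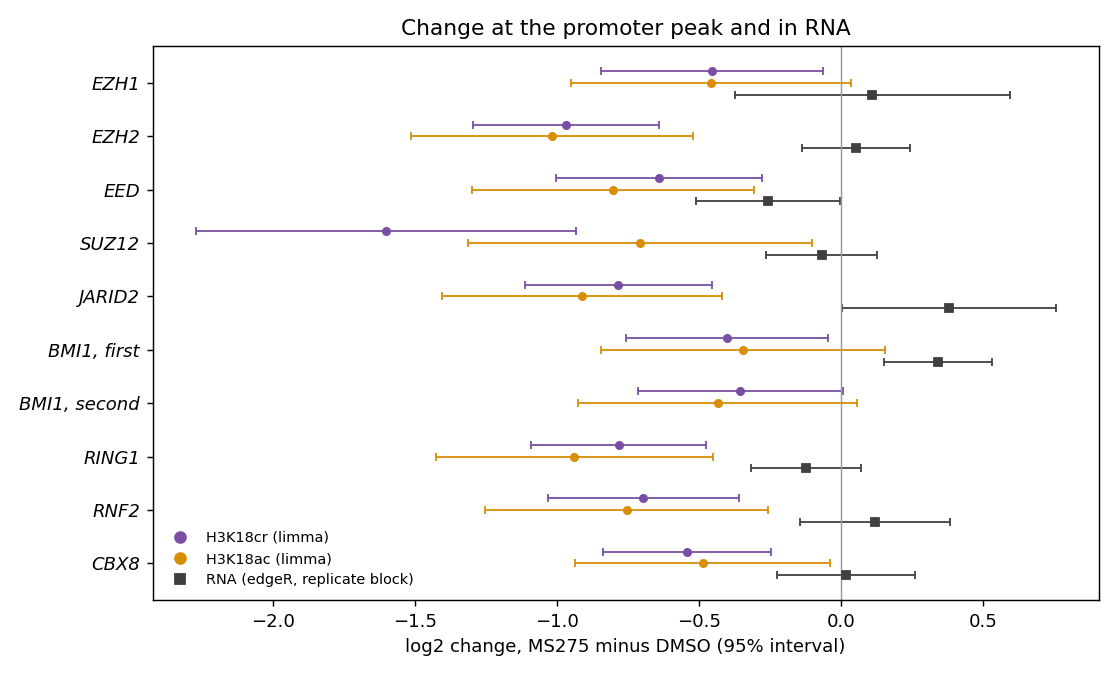
Change with MS275 on the log2 scale for H3K18cr and H3K18ac at the promoter peaks (limma) and for RNA (edgeR with the replicate block), with 95% intervals. The marks lie to the left of 0 at all 10 peaks, and the RNA values lie between -0.26 and 0.38.

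Across the HCT116 libraries the RING1 and RNF2 levels ran against each other, mostly through replicate 3: RING1 was at 70.0 and 70.2 CPM there and at 39.2 to 50.3 CPM elsewhere, RNF2 at 28.2 and 22.3 CPM there and at 32.2 to 47.5 CPM elsewhere. Both treatments shared this. For EZH2, EZH1, RING1 and RNF2, the members for which this was computed, the genes most alike in log2 CPM over the 8 libraries were MBD2, TUBA1C and STIP1 for EZH2 (Pearson's r = 0.98, 0.97 and 0.96), PLA2G6, UPK1A and RASAL1 for EZH1 (0.97, 0.97 and 0.96), AL136419.6, PPIG and MYL6B for RING1 (0.99 each), and HOOK3, FAM168B and PIK3C2A for RNF2 (1.00, 0.99 and 0.98). These are the highest of 14961 genes over 8 libraries that share the split of replicate 3. Over the other 6 libraries the same values lay between 0.90 and 0.99.

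Among the other Polycomb genes none was called without the block (edgeR), and a few were with it. Of 8 PRC2 partners, PHF19, which binds methylated lysine 36, was lower, at 44.3 ± 22 against 76.7 ± 28.8 CPM (SD, n = 4), by 0.84 on the log2 scale (SE 0.09, edgeR adjusted p = 0.00023, lower in 4 of 4 pairs). Of 23 PRC1 partners 4 were higher and 1 lower. The higher ones were MGA (0.46), BCORL1 (0.41), PCGF5 (0.39) and RYBP (0.35), and the lower one was L3MBTL2 (-0.52). PCGF5 is a paralog of BMI1 and RYBP a subunit that takes the place of CBX proteins. Of 6 genes that oppose Polycomb marks (the demethylases KDM6A and KDM6B, the deubiquitinases BAP1 and USP16, and the BAP1 cofactors ASXL1 and ASXL2), 0 were called. Of 12 known Polycomb targets 5 passed the filter on low counts, and 1 was called: CDKN2B, a cell cycle inhibitor gene, at 17.9 ± 6.38 against 9.50 ± 4.20 CPM (0.95, SE 0.16, edgeR adjusted p = 0.00246, higher in 4 of 4 pairs). Its neighbour CDKN2A was at 57.6 ± 6.23 and 55.5 ± 9.57 CPM and was not called. The called share was 11.1% of the members, 12.5% of PRC2 partners and 21.7% of PRC1 partners, beside 14.4% of all genes. Without pair 3 the calls of PHF19, MGA, PCGF5, RYBP, L3MBTL2 and CDKN2B stood, that of BCORL1 ended (edgeR adjusted p = 0.0739), and PHC1 was called higher and PCGF6 lower. Of 20 proliferation genes 3 were called higher and 9 lower, led by TYMS (-0.45) and MCM5 (-0.43), both of DNA synthesis, and without pair 3 it was 2 and 9. Their summed level was 4157 to 5992 CPM with DMSO and 3827 to 5631 CPM with MS275, and its part in the members' values was not tested.

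Set per kilobase of merged exons, the levels of the 9 genes formed a different order in the cell line and in mouse colon. These values compare genes within a group, since the species differ. In DMSO-treated HCT116 cells RING1 was highest, at 29.2 ± 6.35 CPM per kb (SD, n = 4), above SUZ12 (16.7 ± 2.28) without overlap, and BMI1 (15.8 ± 4.36) was next. RNF2 (8.90 ± 1.46), CBX8 (7.85 ± 1.22), EZH2 (5.00 ± 1.09), EED (3.83 ± 0.84) and JARID2 (3.51 ± 0.32) followed, each overlapping its neighbour, and EZH1 (1.26 ± 0.16) was lowest in all 4 libraries. Without replicate 3 BMI1 (17.9) and SUZ12 (17.8) changed places, and RING1 (26.1) stayed highest. In colon Eed was highest at 17 ± 1.04 CPM per kb (SD, n = 3), and above the second, Ring1 (13.1 ± 1.87), in all libraries. Suz12 (10.8 ± 0.29), Ezh1 (8.20 ± 1.16), Jarid2 (7.61 ± 0.50), Ezh2 (7.12 ± 0.63) and Rnf2 (6.87 ± 0.10) were next. Ring1 overlapped Suz12, and Ezh1, Jarid2, Ezh2 and Rnf2 overlapped each their neighbour, while Suz12 lay above Ezh1 without overlap. Bmi1 (4.92 ± 0.54) and Cbx8 (1.99 ± 0.08) were lowest, without overlap. With the longest transcript as the length, 4 of 9 genes in DMSO and 5 of 9 in colon took another rank, EZH2 going from 5.00 to 12 CPM per kb, and RING1 then overlapped SUZ12. RING1, SUZ12, BMI1, JARID2 and EZH1 with DMSO and Eed, Ezh1, Bmi1 and Cbx8 in colon kept their ranks.

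EZH2 exceeded EZH1 per kb by 2.78 to 5.99 times in the DMSO libraries (geometric mean 3.92) and by 2.20 to 8.78 times in the MS275 libraries (3.76). In colon the ratio of Ezh2 to Ezh1 was 0.686 to 1.01 (0.871). With the longest transcript as the length these means were 6.22, 5.96 and 1.18, so the colon ratio stood on either side of 1 and the cell line's above it. Proliferation genes summed to 1202 to 1414 CPM in colon. Of the ligases, RNF2 was at 0.187 to 0.416 of RING1 with DMSO (geometric mean 0.306) and at 0.147 to 0.563 with MS275 (0.361), lowest in replicate 3 of both. Without replicate 3 the means were 0.361 and 0.487. Rnf2 was at 0.472 to 0.639 of Ring1 in colon (0.530), which overlapped the MS275 range but not the DMSO range. Without replicate 3 the EZH2 to EZH1 means were 3.85 with DMSO and 4.5 with MS275.

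**Figure D4:**
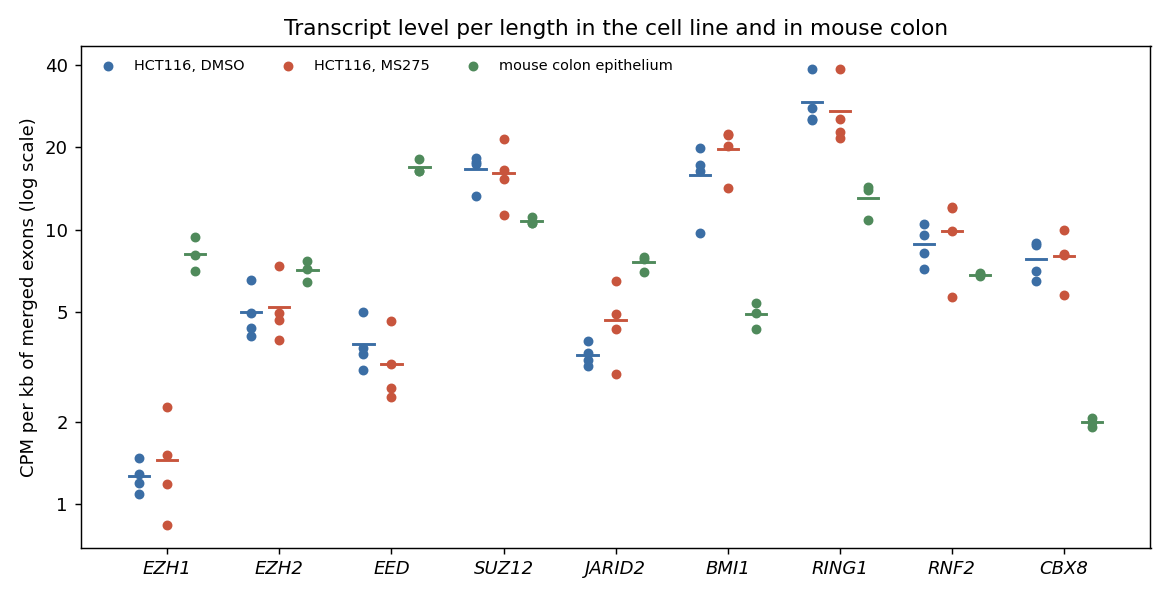
RNA level per kilobase of merged exons for the 9 genes on a log axis, with 4 DMSO and 4 MS275 libraries of HCT116 cells and 3 of mouse colon epithelium. Points are libraries and short lines means. EZH1 is the lowest gene in the cell line, at 1.26 CPM per kb with DMSO, where CBX8 lies at 7.85. In colon Cbx8 is the lowest, at 1.99, and Ezh1 lies at 8.20. Values compare genes within a group, since the species differ.

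In colon epithelium every one of the 9 genes had a promoter peak in both maps. The share of all expressed genes with such a peak was not computed, so the count marks no trait of these genes. Marks were compared with input as the log2 ratio of scaled reads, with 1 scaled read added. For H3K18cr the median ratio of the 10 promoter peaks was 1.92 (1.67 and 2.30 in the 2 replicates), beside 1.5 over the 11435 peaks at start sites. Ezh2 was highest in both replicates, at 2.05 and 2.37 in the 2 replicates, from 173 and 313 scaled reads against 41.0 and 59.5 in the inputs. Ezh1 was at 1.75 and 2.35. Rnf2 was at 1.73 and 2.29, Bmi1 at 1.65 and 2.33, Eed at 1.62 and 2.06 and Ring1 at 1.30 and 2.30. Cbx8 at 1.70 and 1.29 and Suz12 at 1.08 and 1.56 were the lowest genes in the mean of the 2 replicates, although in replicate 1 Cbx8 lay above Bmi1, Eed and Ring1. Jarid2 was split between a peak over its start (1.81 and 2.36) and a second one 1127 bp further in (0.684 and 1.06), which was at percentile 1.79 of start-site peaks. One more Jarid2 peak, inside the gene and no promoter peak, was at 1.49 and 1.85.

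For H3K4me3 the median ratio of the 9 promoter peaks was 2.92, beside 2.38 over 14457 peaks at start sites. It was 2.27, 3.03 and 3.48 in the 3 libraries, which share 1 input. Scaled to the total of reads in peaks instead, the medians were 0.47 for H3K18cr and 0.63 for H3K4me3. Rnf2 was highest at 2.94, 3.89 and 4.20, then Suz12 at 2.84, 3.64 and 4.12 and Ezh2 at 2.61, 3.58 and 4.06. Cbx8 was lowest at 1.88, 2.46 and 2.79, close to the median of all start sites. Suz12 stood at percentile 97.2 for H3K4me3 and 30.3 for H3K18cr, and Ezh1 at 68.2 and 92.1. No replicated test was made of this, as the maps share no library and have 2 and 3 libraries. The other 4 H3K4me3 peaks lay inside or beside Jarid2, Ring1, Cbx8 and Bmi1. Those in Jarid2 and Ring1 were weak, at percentile 1.04 each, and the one 3' of Bmi1, outside the gene, was at 2.62.

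**Figure D5:**
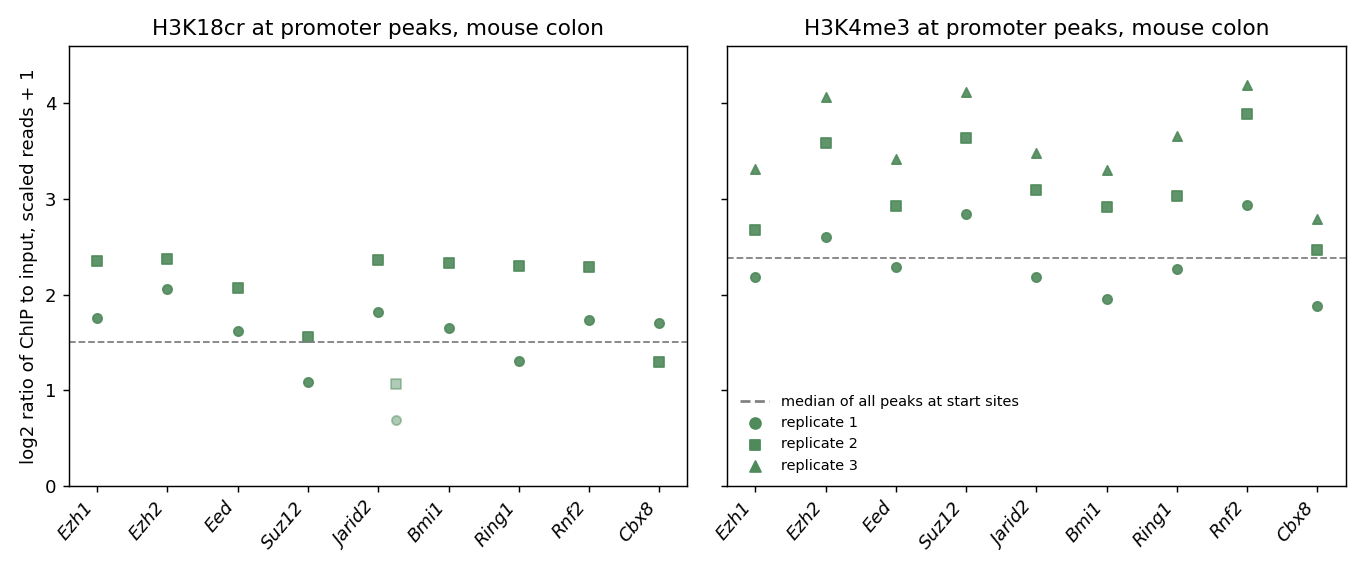
Log2 ratio of ChIP to input at the promoter peaks of the 9 genes in mouse colon epithelium, for H3K18cr (left, 2 replicates with 2 inputs) and H3K4me3 (right, 3 replicates with 1 input). The dashed line is the median of all start-site peaks, at 1.5 and 2.38. The paler points are the second Jarid2 peak, at 0.684 and 1.06.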

How the data were processed

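Both RNA-seq tables hold deposited counts per gene, without normalization. For colon ChIP-seq the authors gave a signal, the reads of a peak scaled to the largest library, and the HCT116 ChIP-seq table holds log2 of such scaled reads as deposited. The authors trimmed reads with Trim Galore, mapped ChIP-seq reads with Bowtie2, left out duplicate reads and used the MACS finder of SEQMONK, with 1 list of peaks per table. For RNA-seq the submitters' processing notes list TopHat2 2.0.12, with no role, and the study's methods name HiSat2 for mouse reads, so the mapper of the HCT116 reads is uncertain. The use of strand in counting is not given in the sources used here. All 33 libraries of 5 tables were used, grouped by the labels. The members and gene lists were chosen with earlier results of these data known, and the other Polycomb genes named are those called, at most 4 per list and direction.

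RNA was tested with edgeR 4.0.16 (quasi-likelihood, TMM, filterByExpr) in R 4.3.3, and peaks with limma 3.58.1 on the deposited log2 values of peaks with at least 10 scaled reads in 3 libraries. DESeq2 1.42.0 was an alternative for both, and edgeR on recovered reads for peaks. P-values were adjusted over all genes or peaks by the Benjamini-Hochberg method, and a call is an adjusted p under 0.05. CPM of HCT116 libraries are TMM-normalized, those of colon use the total count. The scripts of both tests were run on simulated data with known changes. Lengths and start sites came from GENCODE 44 and M21, promoters from RefSeq. Python 3.11.15 was used for the rest. By the study's methods the RNA-seq libraries are biological replicates. For HCT116 H3K18cr the methods give fewer replicates than the 3 libraries labelled, while a figure legend of the study gives n = 3. No source used here says that the 3 HCT116 ChIP-seq libraries per treatment come from separate cultures, so their p-values measure the spread between these libraries.

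The labels number the libraries of both treatments alike. After removal of the group means, RNA-seq libraries of equal number correlated at 0.226, 0.151, 0.433 and 0.460, and the numbers were treated as pairs because each was above 0.1. Libraries of unequal number correlated at -0.418 to 0.239, and pair 2 lies within that range. In ChIP-seq this was not so, although the study compared both marks over start sites by a paired test, so the H3K18ac calls are also given with the block. Lists and ratios without pair 3 were added after seeing the data.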

Additional observations from a re-analysis of the deposited data

How the results depend on the processing

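Of 519 recomputed values over 56 results, 409 kept their direction and their side of the threshold, or stayed within the spread or 1.5 times the count. Another 39 lost a call, 12 gained one, 47 moved further and 12 turned sign.

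RNA calls over all genes numbered 1, and 2151 with the replicate block, 13 with no filter on low counts, 140 with DESeq2, 0 to 1 with one library left out and 968, 994, 2584 and 1037 with the block and pair 1, 2, 3 or 4 left out. Of the members 0 were called, and 1 with the block and 0 to 2 with the block and one pair left out. The replicate block is the paired fit, and in ChIP-seq, where not every pair's correlation was over 0.1 (correlations 0.108, 0.073 and 0.229 for H3K18cr and -0.207, 0.046 and -0.134 for H3K18ac), it gave 814 H3K18ac calls and 0 member promoters, and 7 member promoters for H3K18cr.

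For H3K18cr the 9303 calls became 5160 with TMM, 5511 with edgeR, 3376 with DESeq2 and 5918 to 12590 with one library left out, and the 7 member promoters became 3 with DESeq2 and 5 to 10 with one library left out. For H3K18ac the calls were 3898 with input subtracted and 1432 to 9318 with one library left out, and member promoters 1 and 0 to 9. With one library left out, changes in RNA turned sign within -0.10 to 0.38 for EZH1, -0.14 to 0.22 for EZH2, -0.21 to 0.094 for SUZ12, -0.33 to 0.054 for RING1 and -0.11 to 0.16 for CBX8. With the block and one pair left out EZH1 was at -0.16 (without pair 3) and CBX8 at -0.041 and -0.049 (without pair 1 or 2).

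Within 1 kb of a start site 10 HCT116 peaks remained. With the longest transcript 4 (DMSO), 5 (MS275) and 5 (colon) members took another rank, and 0 to 2 with one library left out. The colon medians were 0.47 (H3K18cr) and 0.63 (H3K4me3) per total of reads in peaks, and 2.27 for H3K4me3 replicate 1 alone. The cause of these shifts was not tested. The SUZ12 peak held 6 to 40 reads of H3K18cr in a library, which limits its precision.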
